A study of Homo sapiens with 6 samples.

Results

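ASNS, PCK2, XPOT, CEBPG, CEBPB, ATF3, JDP2, NUPR1, STC2 and VLDLR are genes that the transcription factor ATF4 is known to switch on when cells adapt to stress. They were found in the table by symbol, and all 10 were among the 12768 genes measured. RNA sequencing was done on LNCaP, an androgen-responsive human prostate cancer cell line, stably transfected with a plasmid for a short hairpin RNA (shRNA) against PRMT5, an arginine methyltransferase, that doxycycline induces. The PRMT5 knockdown group is 3 cultures given doxycycline for 4 days, and the no-knockdown group is 3 cultures of the same transfected cells kept for 4 days without it, so both groups carry the hairpin plasmid. The labels list no culture with doxycycline and another hairpin, so knockdown and doxycycline cannot be told apart, and whether the cells are 1 clone or a pool is not given in the sources used here. The series calls the 3 cultures of a group biological replicates.

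ATF4 is a basic leucine zipper (bZIP) transcription factor whose translation rises when one of several kinases phosphorylates the initiation factor eIF2alpha, an arrangement called the integrated stress response. It pairs with C/EBP family proteins and binds composite sites, the C/EBP-ATF response elements, at genes for amino acid synthesis and import, tRNA charging and stress adaptation. The 10 genes cover several of these tasks. ASNS makes asparagine, PCK2 makes phosphoenolpyruvate in mitochondria, and XPOT carries tRNA out of the nucleus. CEBPG, CEBPB, ATF3 and JDP2 are bZIP factors that can pair with each other or with ATF4, NUPR1 is a small stress-induced chromatin-associated protein, STC2 is a secreted glycoprotein, and VLDLR is a cell surface receptor for lipoproteins and reelin.

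The promoter sequences of 4 members hold the core of that composite site, and these stretches are shown because the site is what ATF4 binds. RefSeq promoter windows of GRCh38.p14, from 250 bases before to 50 bases after an annotated start, were found for 9 of the 10 members (15 windows, some of which overlap), and not for NUPR1. The core was searched as TGATGNAA on both strands. Each stretch below is 30 bases, read 5′ to 3′ on the strand of the gene, with the match in capitals.
ASNS (chr7:97872458-97872487, minus strand): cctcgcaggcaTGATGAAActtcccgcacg
CEBPG (chr19:33374060-33374089, plus strand): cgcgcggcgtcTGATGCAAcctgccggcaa
JDP2 (chr14:75427995-75428024, plus strand): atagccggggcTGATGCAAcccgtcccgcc
ATF3 (chr1:212565205-212565234, plus strand): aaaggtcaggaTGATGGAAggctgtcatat
The match began 68 bases before the start in ASNS, 42 before it in CEBPG, 16 before it in JDP2 and 191 before it in ATF3. Of all 35116 windows of this length 3.62% held TGATGNAA, against 4 of the 15 member windows. The stricter form TGATGCAA was in the windows of CEBPG and JDP2 and in 0.866% of all windows. The cAMP response element TGACGTCA and the AP-1 site TGANTCA, which bZIP factors also bind, were in 0 of the 15 member windows and in 1.85% and 7.71% of all windows. A match describes letters in a window and shows no binding.

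The libraries held 7911853 to 15831938 counted reads, at which 3 reads are worth 0.193 to 0.376 CPM (counts scaled to library size). Members had between 119 and 4315 reads in a library, so none was near that floor. PRMT5 itself stood at 9.69, 10.8 and 10.6 CPM in knockdown cultures and at 88.7, 91.96 and 82.8 CPM in no-knockdown cultures, so every library lay on the side its label gives. All 11 luminal prostate markers looked for were measured, against 2 of 7 basal, 2 of 7 neuroendocrine, 5 of 7 fibroblast, 1 of 6 leukocyte and 1 of 4 endothelial markers. KRT5, TP63, CHGA, PTPRC and PECAM1, which define other cell types, were not among the genes analysed here. The summed level of the fibroblast markers was 55.6 to 63.2 CPM in knockdown libraries and 49.4 to 57.6 CPM in no-knockdown libraries, and its part in the results was not tested.

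ASNS, NUPR1 and CEBPG fell after PRMT5 knockdown, to 65.8%, 68.9% and 75.3% of their level without it, and no member rose. The other 7 did not pass the test. In such bulk samples fewer cells of a kind and less RNA per cell cannot be told apart. All 10 members had a fitted log2 fold change below 0, with a median of -0.39 (-0.0021 over all genes), where 50.4% of all genes lay below 0. By edgeR's quasi-likelihood test with Benjamini-Hochberg adjustment over all genes, 3 of the 10 were lower at an adjusted p of 0.05, where 1.14% of all genes were called lower and 0.337% higher. With the replicate number as a block, 5 of 10 were lower (ASNS, NUPR1, CEBPG, STC2 and PCK2), where 5.10% of all genes were, and DESeq2 called the same 5 against 1.66% of all genes. The authors' deposited table lists these 5 under a false discovery rate of 0.05, where 2.68% of its genes are lower and under that rate. In 5 of the 10 (ASNS, NUPR1, CEBPG, PCK2 and JDP2) every knockdown library lay below every no-knockdown library, as was so for 11.6% of all genes. The calls rest on few cultures. Without knockdown replicate 1, knockdown replicate 3 or no-knockdown replicate 3, 0 members passed, and without no-knockdown replicate 1 only ASNS did, while 24, 30, 29 and 52 of all genes passed in those fits. Without no-knockdown replicate 2, 5 members passed as lower, while 269 of all genes passed (66 higher, 203 lower). Without knockdown replicate 2, 4 members passed as lower, while 445 of all genes passed (179 higher, 266 lower).

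**Figure D1:**
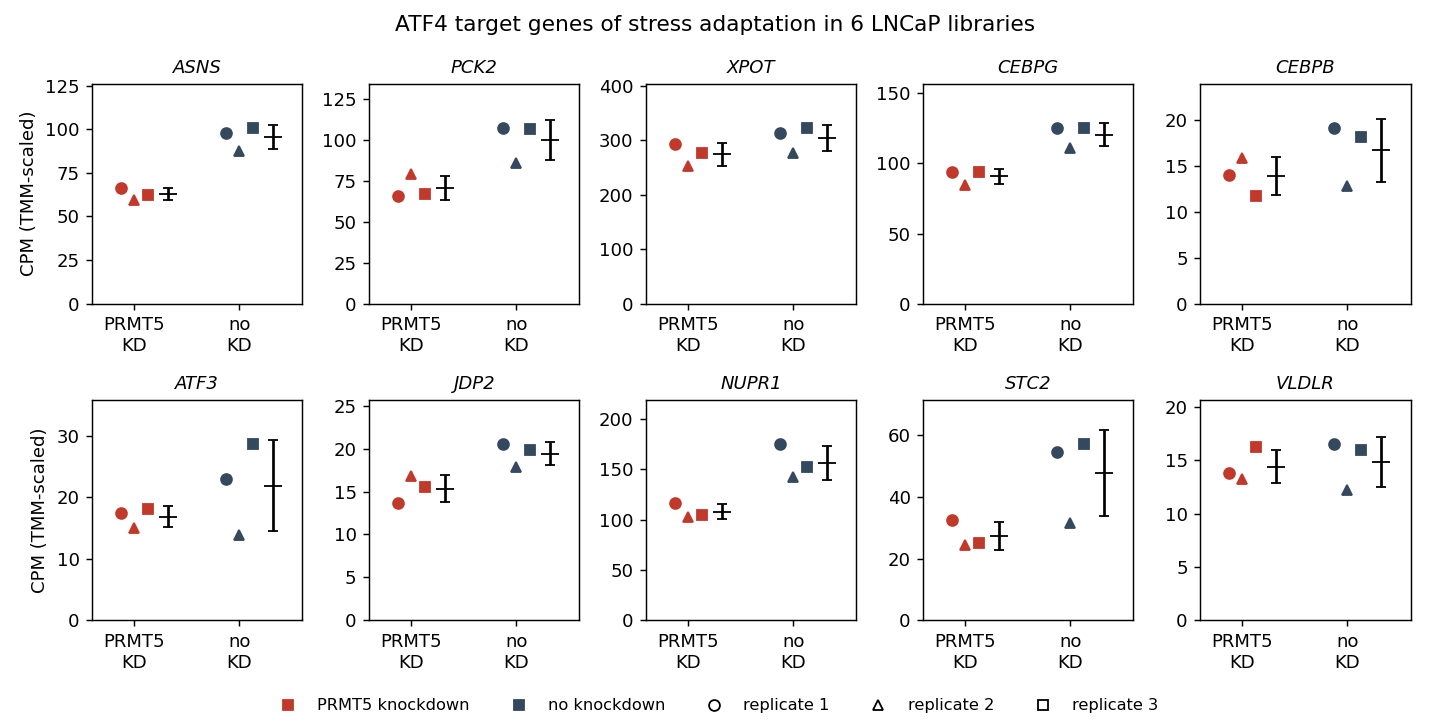
Expression of the 10 genes in each library, in TMM-scaled CPM from 0, with PRMT5 knockdown cultures in red on the left of each panel and no-knockdown cultures in dark blue on the right. Marker shapes give the replicate number, and the bar beside each group is its mean ± SD over 3 libraries. The groups do not overlap for ASNS, PCK2, CEBPG, JDP2 and NUPR1, and the triangle of replicate 2 is the lowest no-knockdown library in all 10 panels.

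Of the metabolic enzymes ASNS fell, and PCK2 did not pass edgeR's test over all 6 libraries without the replicate block. Asparagine synthetase (ASNS, chromosome 7, 97852118 to 97872542, minus strand; member positions are of GRCh38, GENCODE 29) stood at 66.4, 59.7 and 62.4 CPM in knockdown cultures and at 98.1, 87.7 and 100.9 CPM in no-knockdown cultures. The groups were well apart, with every knockdown library far below the lowest no-knockdown one. ASNS averaged 62.8 ± 3.37 CPM after knockdown and 95.5 ± 6.97 CPM without it (SD, n = 3 each), and the fitted change was -0.60 on the log2 scale (SE 0.084; adjusted p = 0.00893 by edgeR). It had the smallest p of the 10 and ranked 37 among all genes. The mitochondrial phosphoenolpyruvate carboxykinase PCK2 (chromosome 14, 24094053 to 24110598, plus strand) had 65.8, 79.4 and 66.6 CPM after knockdown and 107, 86.0 and 107 CPM without it. Replicate 2 was the highest knockdown library and the lowest no-knockdown library, so the groups came near each other there without overlapping. The fit gave PCK2 -0.50 (log2, SE 0.11), where edgeR gave an adjusted p of 0.0557 and, with the replicate block, 0.00976. PCK2 also passed by DESeq2 (adjusted p = 0.00568) and by edgeR without knockdown replicate 2 (0.0226) or no-knockdown replicate 2 (0.0150).

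XPOT, the tRNA exporter (chromosome 12, 64404350 to 64451127, plus strand), had the most reads of the members and a small difference. It stood at 294, 252 and 277 CPM in knockdown cultures and at 313, 276 and 323 CPM in no-knockdown cultures. The groups overlapped, although the knockdown library was the lower one in each of the 3 numbered pairs. Its log2 fold change was -0.15 (95% interval -0.34 to 0.05, edgeR adjusted p = 0.489, and 0.150 with the block), so a fall of the size seen for ASNS lay outside the interval.

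Among the bZIP factors CEBPG fell, and CEBPB, ATF3 and JDP2 did not pass. CEBPG (chromosome 19, 33373330 to 33382686, plus strand), a partner of ATF4 and other C/EBP proteins, had 93.8, 84.8 and 93.6 CPM after knockdown and 125, 111 and 125 CPM without it. The knockdown values lay in a narrow band below all no-knockdown values. Its means were 90.7 ± 5.17 CPM after knockdown and 121 ± 8.09 CPM without it (SD, n = 3 each), a log2 fold change of -0.41 (SE 0.080, edgeR adjusted p = 0.0355) that was nearly the same in each pair (-0.41, -0.39 and -0.42). CEBPB (chromosome 20, 50190734 to 50192689, plus strand), a C/EBP activator of many stress and inflammatory genes, had 14.1, 15.9 and 11.7 CPM after knockdown and 19.2, 12.8 and 18.2 CPM without it. It was lower after knockdown in pairs 1 and 3 (log2 ratios -0.45 and -0.64) and higher in pair 2 (0.31), and the fit gave -0.28 (95% interval -0.66 to 0.11, edgeR adjusted p = 0.515). Exons of its antisense gene CEBPB-AS1 overlap its own in GENCODE 29, and without a known strand setting reads of the pair cannot be told apart. CEBPB-AS1 averaged 2.87 ± 0.14 CPM after knockdown and 3.31 ± 0.82 CPM without it.

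ATF3 (chromosome 1, 212565334 to 212620777, plus strand), a stress-induced regulator that ATF4 activates, and JDP2 (chromosome 14, 75427716 to 75474111, plus strand), a close relative that dampens AP-1 activity, gave different degrees of spread. ATF3 stood at 17.4, 14.9 and 18.1 CPM in knockdown cultures and at 23.0, 13.9 and 28.6 CPM in no-knockdown cultures, where replicate 3 was the highest and replicate 2 the lowest of all 6. The knockdown range lay inside the no-knockdown range. The log2 fold change of ATF3 was -0.37 (95% interval -0.88 to 0.14, edgeR adjusted p = 0.515), and 0.113 was the adjusted p with the block. JDP2 had 13.7, 16.8 and 15.6 CPM after knockdown and 20.5, 17.9 and 19.8 CPM without it, groups that did not overlap. Its log2 fold change was -0.34 (95% interval -0.60 to -0.08), which did not pass over all genes (edgeR adjusted p = 0.230, and 0.0902 with the block).

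NUPR1, the stress-induced chromatin-associated protein (chromosome 16, 28532708 to 28539174, minus strand), fell. It stood at 117, 103 and 104 CPM in knockdown cultures and at 175, 143 and 152 CPM in no-knockdown cultures, with a clear gap between the groups. NUPR1 averaged 108 ± 7.45 CPM after knockdown and 157 ± 16.7 CPM without it (SD, n = 3 each), a log2 difference of -0.54 (SE 0.092; adjusted p = 0.0204 by edgeR).

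STC2, a secreted glycoprotein known to rise under endoplasmic reticulum stress (chromosome 5, 173314713 to 173329503, minus strand), had the lowest fitted fold change of the 10 and a wide spread. It had 32.5, 24.3 and 24.996 CPM after knockdown and 54.5, 31.6 and 57.1 CPM without it. The groups overlapped because no-knockdown replicate 2 lay just under knockdown replicate 1, while the knockdown library was lower in each pair (log2 ratios -0.75, -0.38 and -1.19). Its log2 fold change was -0.81 (SE 0.22, 95% interval -1.31 to -0.31), and edgeR gave an adjusted p of 0.141, or 0.00172 when blocked by replicate number. VLDLR (chromosome 9, 2621834 to 2660053, plus strand), the lipoprotein and reelin receptor, stood at 13.8, 13.2 and 16.2 CPM in knockdown cultures and at 16.5, 12.2 and 15.9 CPM in no-knockdown cultures. The ranges were nearly the same. Its log2 fold change was -0.04 (95% interval -0.37 to 0.29, edgeR adjusted p = 0.931), and its sign changed when single libraries were left out.

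**Figure D2:**
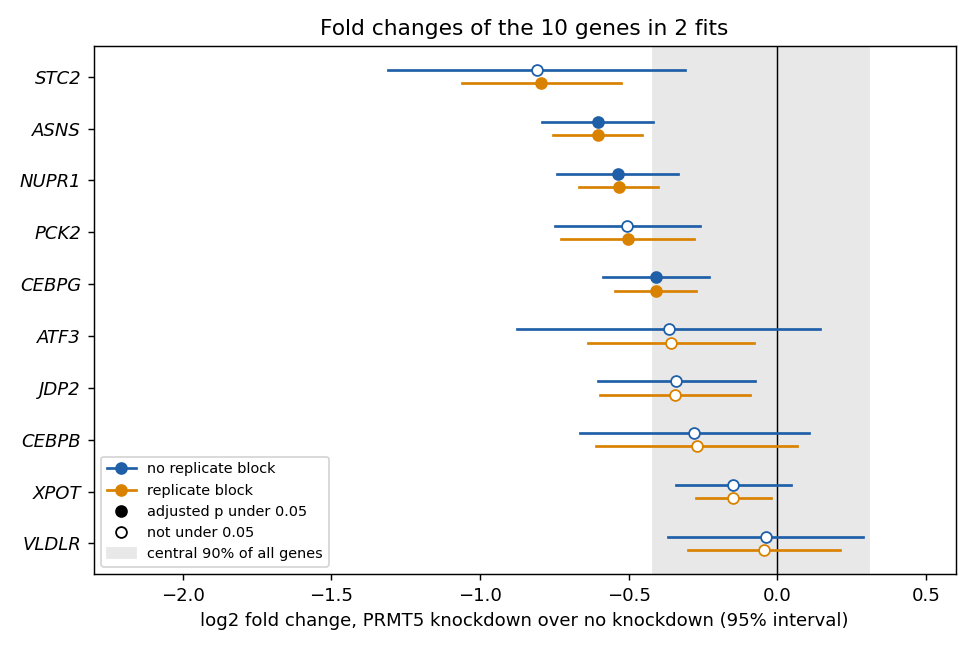
Log2 fold change of each gene, PRMT5 knockdown over no knockdown, with its 95% interval from edgeR without the replicate block (blue) and with it (orange), over 3 libraries a group. Filled points have an adjusted p under 0.05, and the grey band holds the central 90% of all 12768 genes (-0.42 to 0.31). STC2 is lowest at -0.81, ATF3 and STC2 have the widest intervals without the block and CEBPB with it, and VLDLR is nearest 0 at -0.04.

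An exact two-sided permutation test of single log2 CPM values gave p = 0.1, the smallest that 3 against 3 libraries allow, for ASNS, NUPR1, CEBPG, PCK2 and JDP2. Any gene whose groups do not overlap gets this p, so it adds nothing to that observation. In 11.6% of all genes the groups did not overlap with knockdown below. The other members had exact p of 0.2 (STC2), 0.3 (CEBPB and XPOT), 0.4 (ATF3) and 0.9 (VLDLR). The 4 members with a TGATGNAA match in a promoter window had log2 fold changes of -0.60 (ASNS), -0.41 (CEBPG), -0.37 (ATF3) and -0.34 (JDP2). Of the 5 members with a window and no match, STC2 and PCK2 lay at -0.81 and -0.50, and CEBPB, XPOT and VLDLR at -0.28, -0.15 and -0.04.

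The members differed widely in level. Per kilobase of exon, NUPR1 was highest in every library, at 113 to 128 CPM per kilobase after knockdown and 156 to 192 without it. XPOT came next, at 63.9 to 74.4 after knockdown and 69.9 to 81.8 CPM per kilobase without it. ASNS, CEBPG and PCK2 formed a middle group, at 23.6 to 26.3, 22.0 to 24.3 and 19.8 to 23.9 CPM per kilobase after knockdown, and at 34.7 to 39.9, 28.8 to 32.5 and 25.9 to 32.4 CPM per kilobase without it. In no-knockdown libraries ASNS lay above CEBPG with no overlap, whereas after knockdown the ranges of these 2 genes overlapped, and CEBPG and PCK2 overlapped in both groups. STC2, ATF3 and CEBPB followed, with medians of 4.68, 6.83 and 6.67 CPM per kilobase after knockdown and 10.2, 9.04 and 8.63 without it, and neighbours in this order did not separate beyond their spread. JDP2 and VLDLR were lowest and also overlapped, with medians of 3.64 and 3.79 CPM per kilobase after knockdown and 4.64 and 4.38 without it. Among all genes measured in no-knockdown cultures, the level per kilobase of NUPR1 was at percentile 98.2, that of ASNS at 85.2 and that of VLDLR at 24.8. These levels use the exon length that the table gives for each gene.

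No-knockdown replicate 2 had the lowest level of its group for all 10 members, and 42.8% of all genes were lowest in that library. The deficit against the mean of no-knockdown replicates 1 and 3 was largest for ATF3 (-0.88 on the log2 scale), STC2 (-0.82), CEBPB (-0.54) and VLDLR (-0.41), and lay between -0.32 and -0.17 for the other 6. Its median over the members was -0.26, against -0.01 over all genes. Knockdown replicate 2 was the lowest of its group for 7 of the 10 members (39.3% of all genes), and PCK2, CEBPB and JDP2 were highest there, by 0.26, 0.31 and 0.20 (log2) over the mean of knockdown replicates 1 and 3. The library of no-knockdown replicate 2 held 9870850 reads, between those of the other no-knockdown libraries, and the labels give no date or batch for it. What sets replicate 2 apart was not tested. When replicate 2 of both groups was left out, a fit chosen after its values were seen, 9 of the 10 members passed as lower, all but VLDLR, where 9.12% of all genes did and 7.64% were called higher, and the median log2 fold change of the members was -0.54. That fit takes its spread from replicates 1 and 3 of each group, and the counts of no-knockdown replicates 1 and 3 were the most alike of any pair within a group (chi-square per degree of freedom 1.73, against 7.01 to 20.4 for the other pairs).

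**Figure D3:**
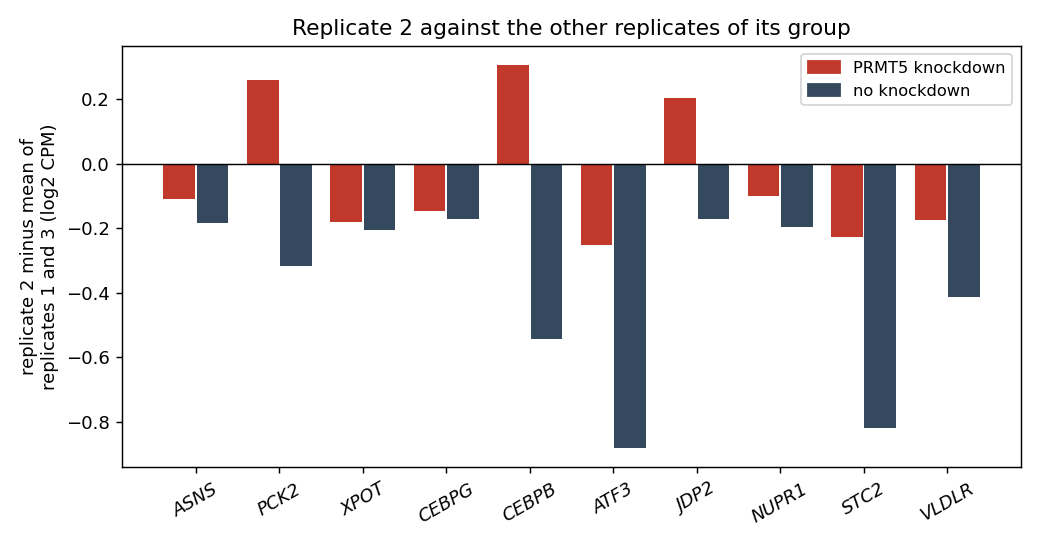
Level of replicate 2 minus the mean of replicates 1 and 3 of the same group, in log2 CPM, for each gene, with PRMT5 knockdown in red on the left of each pair of bars and no knockdown in dark blue on the right. All 10 dark bars lie below 0, from -0.88 for ATF3 to -0.17 for CEBPG and JDP2, while 3 red bars lie above 0.

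Of the regulators of the pathway, ATF4 and EIF2AK3 fell, and the others did not pass. ATF4 (chromosome 22, 39519695 to 39522685, plus strand) stood at 186, 174 and 179.7 CPM in knockdown cultures and at 258, 232 and 255 CPM in no-knockdown cultures, which do not overlap. In the fit ATF4 was at -0.47 (log2, SE 0.071; adjusted p = 0.0130 by edgeR). EIF2AK3, the endoplasmic reticulum kinase PERK that phosphorylates eIF2alpha, had the smallest p of the regulators, with 49.9, 55.5 and 54.6 CPM after knockdown and 78.1, 78.5 and 84.4 CPM without it (log2 fold change -0.59, SE 0.080, adjusted p = 0.00758). DDIT3, the bZIP factor CHOP that ATF4 induces under prolonged stress, had 30.4, 27.2 and 32.3 CPM after knockdown and 41.8, 37.2 and 45.8 CPM without it, groups that did not overlap (log2 fold change -0.47, edgeR adjusted p = 0.0668). DDIT3 passed with the block (0.00261), by DESeq2 (0.0325) and by edgeR without no-knockdown replicate 2 (0.0297). Of 16 regulators (the 4 eIF2alpha kinases, the subunits of the eIF2 exchange factor, ATF4, ATF5, DDIT3 and feedback genes among them), 2 were lower and 0 higher. With the block 3 were lower. Of all genes 1.14% were called lower without the block and 5.10% with it. The median of the 16 regulators on the log2 scale was -0.08. ATF4 and EIF2AK3 lost their calls without knockdown replicate 1, knockdown replicate 3 or no-knockdown replicate 3, and ATF4 also without no-knockdown replicate 1.

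Among other ATF4 targets, mostly genes of amino acid synthesis, import and tRNA charging, 38 were measured and 7 were lower, none higher. These were PHGDH, SLC7A11, PSAT1, MTHFD2, CARS, IARS and YARS, where 1.14% of all genes were lower, and 22 were lower with the block, where 5.10% were. The count called lower or higher was 3 without knockdown replicate 1, 2 without knockdown replicate 3, 3 without no-knockdown replicate 1 and 2 without no-knockdown replicate 3. It was 10 without knockdown replicate 2 and 16 without no-knockdown replicate 2. In all 34 of the 38 had negative fitted values, where 50.4% of all genes did, and -0.30 was the median. PHGDH, the first enzyme of serine synthesis, had 171, 160.1 and 148 CPM after knockdown and 287, 283 and 262 CPM without it (log2 fold change -0.80, adjusted p = 0.00105). SLC7A11, the cystine importer, had 81.6, 54.6 and 76.6 CPM after knockdown and 223, 174 and 238 CPM without it (log2 fold change -1.57, adjusted p = 0.00453), a larger difference than that of any member. TARS (0.17), ALDH18A1 (0.14), KLHL24 (0.14) and SLC38A2 (0.03), named after their values were seen, lay above 0 and did not pass. No-knockdown replicate 2 was the lowest of its group for 28 of these 38 genes, as it was for 42.8% of all genes.

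**Figure D4:**
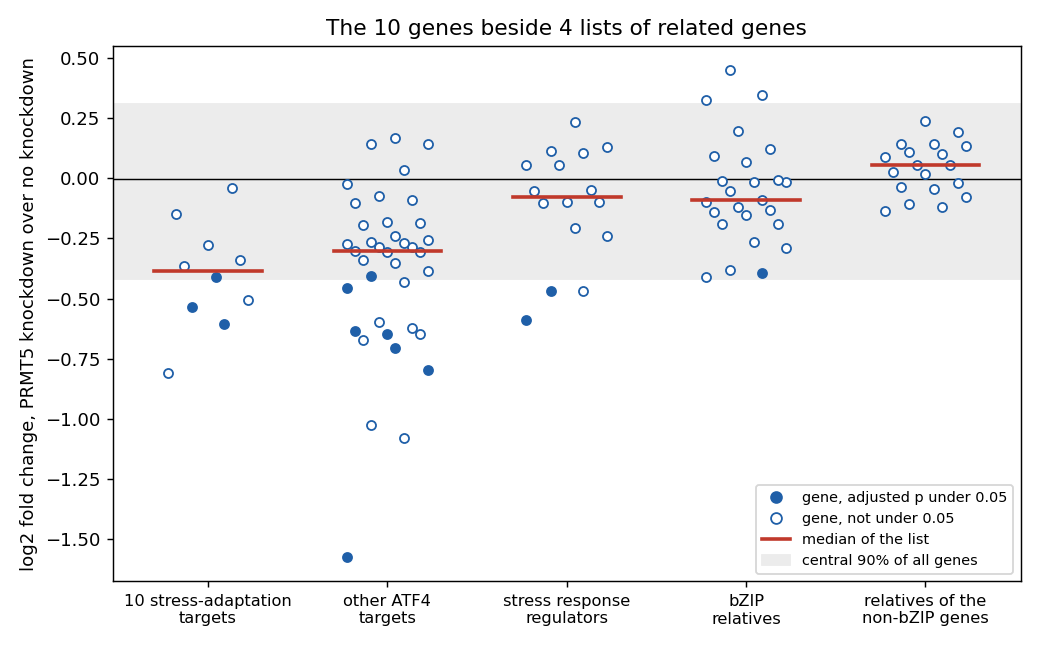
Log2 fold changes, PRMT5 knockdown over no knockdown, of the 10 stress-adaptation targets and of 4 lists of related genes, 1 point a gene, filled where the edgeR adjusted p is under 0.05. Red lines are medians (-0.39, -0.30, -0.08, -0.09 and 0.05 from left to right), and the grey band holds the central 90% of all genes.

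Of 25 relatives of the bZIP members that were measured, XBP1, a bZIP factor of the unfolded protein response, was the 1 called lower (134, 150.4 and 139.6 CPM after knockdown, 176, 189.7 and 191 CPM without it, log2 fold change -0.39, adjusted p = 0.0294). Negative values were found for 18 of the 25, where 50.4% of all genes had them, and -0.09 was the median (log2). XBP1 lost that call without any 1 of knockdown replicates 1 and 3 and no-knockdown replicates 1 and 3. For ATF1, a CREB family factor, the fit gave -0.38 (0.0744 as adjusted p, 0.00817 when blocked). Closest to the C/EBP members, CEBPD lay at 0.45 (adjusted p = 0.360) and CEBPA at -0.15 (adjusted p = 0.608), and JUN, an AP-1 partner of ATF3 and JDP2, at -0.41 (adjusted p = 0.157, and 0.00424 with the block). With the block 3 of the 25 were lower and 1 higher, the higher one being NFE2L2 (edgeR adjusted p = 0.00859). Of all genes 5.10% were called lower and 3.21% higher with the block, and 1.14% were called lower without it. CEBPD, CEBPA, JUN and NFE2L2 were named after their values were seen.

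Relatives and pathway neighbours of the other members showed 0 calls among 19 measured by edgeR, 0 by DESeq2 and 2 at an unadjusted p under 0.05. The median of their log2 values was 0.05. ASNSD1, a relative of ASNS, lay at 0.05, and the nuclear exporters XPO1, XPO4, XPO5, XPO6, XPO7 and CSE1L, relatives of XPOT, lay between -0.11 and 0.14, and none of these passed. They were named after their values were seen.

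As a description, the log2 CPM of all genes was set against the mean of the members' standardised log2 CPM over the 6 libraries, which share the group difference and the low level in no-knockdown replicate 2. The non-member genes with the highest Pearson r were STEAP2, a metalloreductase abundant in prostate (r = 0.995), ADAM11, a catalytically inactive ADAM family gene (r = 0.991), and SLC3A2, also among the other ATF4 targets and the heavy chain that carries SLC7A11 and other amino acid exchangers to the membrane (r = 0.989). STEAP2 had 3205, 3079 and 3210 CPM after knockdown and 4175, 3476 and 4182 CPM without it (log2 fold change -0.32, adjusted p = 0.139, and 0.00697 with the block). SLC3A2 had 107, 106 and 109 CPM after knockdown and 137, 111 and 133 CPM without it, so that no-knockdown replicate 2 was close to the knockdown libraries.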

How the data were processed

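The authors deposited raw read counts per gene, which are not normalized, and log2 CPM per library, both per the file headers. Beside them the authors deposited their own comparison (log2 fold change, p-value, false discovery rate) and a gene length in bases. The tools named are edgeR 3.20.8, STAR 2.5, Subread 1.6.5 with featureCounts, and bcl2fastq, on hg38, per the submitters' processing notes. Strand setting, annotation and low-count filter were not found in those notes or the labels. Table coordinates overlap the GENCODE 29 position for only VLDLR of the 10 members, so they are not of GRCh38 and positions printed are those of GENCODE 29. Counts were fitted with edgeR 4.0.16 in R 4.3.3 across all 12768 genes by robust quasi-likelihood on group alone, after TMM scaling. The filterByExpr filter (count 10, total 15) left out 0 genes, p-values were adjusted by Benjamini-Hochberg, and 0.05 was the threshold. CPM values are TMM-scaled, and 95% intervals use the quasi-likelihood degrees of freedom. In GENCODE 29 exons of ASNS, VLDLR and JDP2 overlap those of genes not analysed here, so a share of their reads could be of those genes. Intervals and the 3-read floor cover counting error or the spread between these cultures only.

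The text names the 10 members, PRMT5, ATF4 and DDIT3, in each of 4 related lists the 2 genes with the smallest p, and the 3 genes most like the members in profile (average log2 CPM of at least 2). Some genes that this rule names are not reported here. Members and lists were chosen with earlier results of these data known. Same-numbered libraries of the groups deviated together from their group means. Across 11375 genes they correlated by 0.41, 0.48 and 0.19 for replicates 1, 2 and 3. Each value is over the 0.1 limit for treating numbers as pairs. But knockdown replicate 1 correlated by 0.30 with no-knockdown replicate 3. Knockdown replicate 3 correlated by 0.21 with no-knockdown replicate 1, against 0.19 with its own number. The numbers 1 and 3 are thus not set apart, and pairs 1 and 3 rest on the replicate numbers alone. Blocked values are therefore printed where they change a call. Alternatives were DESeq2 1.42.0, limma-voom (limma 3.58.1), other scalings and filters, the block and leaving out libraries.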

Additional observations from a re-analysis of the deposited data

How the results depend on the processing

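Limma-voom, DESeq2 size factors, upper quartile scaling, no filter and a filter of at least 10 CPM in 3 libraries changed no call or direction of the members and other named genes, and moved no list's count by more than 1 gene. With the replicate block 1061 of all genes passed (410 higher, 651 lower), against 189 without it. Among them were 5 members and 22 other ATF4 targets, all lower. Also among them were 4 bZIP relatives (1 higher, 3 lower) and 1 of the other relatives, which was higher. The block turned no direction, and every other call of the named genes stayed on its side apart from STC2, PCK2, DDIT3, ATF1 and STEAP2, which gained one. With DESeq2 303 genes passed, with 5 members and 11 other ATF4 targets, and STC2, PCK2, DDIT3 and STEAP2 gained a call. Leaving out 1 library at a time gave 24 to 445 genes, 0 to 5 members, 0 to 3 regulators, 2 to 16 other ATF4 targets and 0 to 2 bZIP relatives. The VLDLR log2 fold change then ran between -0.16 and 0.048 and was above 0 in 4 of the 6 fits (0.0034, 0.019, 0.048 and 0.0083). Without replicate 2 of both groups, chosen after seeing the data, 2141 genes passed (976 higher, 1165 lower). Among these were 9 members and 4 regulators, all lower, and the members' median log2 fold change was -0.54. Also among these genes were 33 other ATF4 targets (2 higher, 31 lower), 11 bZIP relatives (2 higher, 9 lower) and 5 other relatives, all higher. The stricter TGATGCAA was in windows of 2 members in place of 4. The cause of these changes was not tested, beyond the smaller number of libraries where some were left out. VLDLR, CEBPB, ATF3 and JDP2 had the fewest reads of the members (119 to 282 a library). Without the block the intervals of VLDLR, CEBPB and ATF3 held 0, and differences inside them were not detectable here. The interval of JDP2 (-0.60 to -0.08) lay below 0, but JDP2 did not pass over all genes.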
